A study of Homo sapiens with 17 samples.

Results

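The clustered replication histone genes of human chromosome 6 are the protein-coding genes between 25.9 and 28.0 Mb (hg38) whose RefSeq symbols start with H1-, H2AC, H2BC, H3C or H4C. The rule found 53 of 20037 protein-coding genes: 6 of class H1, 11 of H2A, 14 of H2B, 10 of H3 and 12 of H4. They lie in 3 blocks. The first holds 32 genes from H1-1 to H4C8 at 26.02 to 26.29 Mb, the second 5 genes from H2BC11 to H2AC12 at 27.13 to 27.15 Mb, and the third 16 genes from H2BC13 to H2BC17 at 27.81 to 27.89 Mb. The genes are short, with a median span of 487 bp against 24115 bp over all protein-coding genes, and 5 members (H2BC4, H2BC5, H2BC12, H3C4 and H3C6) are annotated with spans over 1 kb.

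CUT&RUN, in which an antibody-directed nuclease cuts out DNA around a bound protein, was applied to nuclei of Nthy-ORI, an immortalised normal thyroid epithelial line. All cells were first starved of hormone in medium with charcoal-stripped serum and then received vehicle (NaOH) or 10 nM T3, the active thyroid hormone. The samples are labelled 6 h, although the protocol text also names a longer exposure. Antibodies to thyroid hormone receptor beta (TRβ), BRG1, ARID1A and PBRM1 gave 2 libraries in each condition, with 500000 cells per reaction, and 1 IgG library was not analysed here. The labels do not say that replicates were separate cultures.

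Each antibody and condition is represented by 1 deposited list of regions found in both libraries. On the autosomes, X and Y, the lists held 1412 (vehicle) and 7208 (T3) TRβ regions, 64299 and 55938 BRG1 regions, 49021 and 41710 ARID1A regions, and 9115 and 38140 PBRM1 regions. With 1 list per group no test between conditions was possible, read depth is unknown, and all shares below are descriptions. A region called in one library alone is in no list, so a gene without a region is not shown to be free of the protein. Of the thyroid marker genes, the lineage genes PAX8, FOXE1 and HHEX had BRG1 regions in both conditions, while NKX2-1 had 1 ARID1A vehicle region and no other. Occupancy at a gene does not give its expression.

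Histones package DNA: H2A, H2B, H3 and H4 form the protein core of the nucleosome and H1 binds the linker DNA between cores. The clustered genes are usually without introns, are transcribed mainly during DNA replication, and give mRNAs that end in a stem-loop in place of a poly(A) tail. BRG1 (SMARCA4) is an ATPase of the SWI/SNF remodelers, which slide or evict nucleosomes; ARID1A marks the BAF form of the complex and PBRM1 the PBAF form. TRβ is a nuclear receptor that binds DNA and regulates genes in response to T3.

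The bases before the start site are shown for the member of each class with the highest BRG1 value with T3, because BRG1 and PBRM1 regions lay around these starts. Each sequence covers the 250 bases before the RefSeq start (GRCh38.p14), 5′ to 3′ on the gene's strand, on chr6:26056471-26056720 (minus strand) for H1-2, chr6:27807923-27808172 (plus) for H2AC13, chr6:27807930-27808179 (minus) for H2BC13, chr6:27809801-27810050 (plus) for H3C10 and chr6:26027284-26027533 (minus) for H4C2. Capitals mark matches, on either strand, to 5 motifs. These are TATAAA, bound by the general factor TBP; CCAAT, bound by NF-Y; ATTTGCAT, bound by OCT factors; AAACACA, an element known from H1 promoters; and AGGTCA, the core of a thyroid hormone response element.
H1-2: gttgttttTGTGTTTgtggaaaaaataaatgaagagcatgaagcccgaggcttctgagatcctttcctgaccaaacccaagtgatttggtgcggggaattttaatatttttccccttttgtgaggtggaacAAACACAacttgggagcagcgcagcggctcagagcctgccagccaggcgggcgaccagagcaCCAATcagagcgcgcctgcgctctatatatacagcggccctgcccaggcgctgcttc
H2AC13: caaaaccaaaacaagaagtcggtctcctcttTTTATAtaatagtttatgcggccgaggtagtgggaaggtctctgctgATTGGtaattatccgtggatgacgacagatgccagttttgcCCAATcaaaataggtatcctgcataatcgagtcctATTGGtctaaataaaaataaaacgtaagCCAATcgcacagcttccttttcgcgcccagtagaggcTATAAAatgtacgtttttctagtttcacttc
H2BC13: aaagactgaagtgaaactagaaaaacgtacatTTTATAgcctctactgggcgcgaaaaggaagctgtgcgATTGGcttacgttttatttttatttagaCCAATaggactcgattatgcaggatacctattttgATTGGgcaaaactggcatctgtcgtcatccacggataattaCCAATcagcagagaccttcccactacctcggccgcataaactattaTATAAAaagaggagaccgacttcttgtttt
H3C10: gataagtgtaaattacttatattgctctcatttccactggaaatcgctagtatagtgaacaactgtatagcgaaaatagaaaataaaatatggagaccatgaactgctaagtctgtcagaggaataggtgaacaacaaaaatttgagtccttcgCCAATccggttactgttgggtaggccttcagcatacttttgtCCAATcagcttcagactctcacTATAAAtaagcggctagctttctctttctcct
H4C2: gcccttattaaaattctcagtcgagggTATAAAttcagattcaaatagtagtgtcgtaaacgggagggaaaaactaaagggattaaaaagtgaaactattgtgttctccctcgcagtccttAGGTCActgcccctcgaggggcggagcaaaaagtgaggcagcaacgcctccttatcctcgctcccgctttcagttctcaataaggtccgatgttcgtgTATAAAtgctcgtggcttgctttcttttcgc

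H2AC13 and H2BC13 are divergent neighbours, and their windows overlap, so each shows the other's sequence on the opposite strand with a TATAAA match near either start. The H1-2 window held AAACACA on both strands and a CCAAT, and no TATAAA. H3C10 held 2 CCAAT and a TATAAA 32 to 27 bases before its start. In H4C2 there were 2 TATAAA matches and an AGGTCA at bases 129 to 124 before the start, and no CCAAT. In the lists, the H4C2 window was overlapped, by at least 1 bp, by BRG1 regions of both conditions and by no TRβ or PBRM1 region, and the H3C10 window by the BRG1 T3 region and by PBRM1 regions of both conditions. The H2AC13 and H2BC13 windows were overlapped by BRG1 in both conditions, by ARID1A with vehicle and by PBRM1 with T3. The H1-2 window was overlapped by BRG1 and ARID1A with vehicle and by PBRM1 with T3.

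RefSeq promoters (300 bases, from 250 before to 50 after the start) were given for 48 members and 15842 genes in all. TATAAA was in 31 members (64.6%, against 9.63% of all promoters) and CCAAT in 41 (85.4%, against 36.4%). CCAAT was in every H1, H2A, H2B and H3 promoter given and in 3 of 10 H4 promoters. ATTTGCAT was in 20 members (41.7%, against 1.7%), of which 8 of 10 were H2A, 11 of 14 H2B and 1 of 8 H3, and H2AC13 and H2BC13 were not among them. H3C4 and H2AC7 are annotated with the same start, so the same promoter is counted in both the H3 and the H2A class. Both genes also enter the counts by start site below. The promoters of the 8 divergent H2A and H2B pairs (starts 194 to 248 bp apart) overlap as well. The same match can thus be counted in both genes of a pair, so the member promoters are not independent. AAACACA was in all 6 H1 promoters and in no other member (4.24% of all promoters). AGGTCA was in 6 members (12.5%), close to the 11.7% of all promoters. A match is not a bound site.

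Among the remodeler subunits, BRG1 was the most widely listed at the histone genes. With vehicle, 47 of 53 members (88.7%) had a BRG1 region within the gene span extended by 2 kb, against 72.4% of all protein-coding genes, and with T3 46 (86.8%) did, against 68.5%. PBRM1 was listed at 16 members with vehicle (30.2%, and also 30.2% of all genes) and at 40 with T3 (75.5%, against 67.5%). ARID1A went the other way, with 17 members with vehicle (32.1%, against 66.6%) and 7 with T3 (13.2%, against 64.6%). TRβ had no region at any member with vehicle (5.88% of all genes) and a region at 4 with T3 (7.55%, against 25.9%). The histone genes therefore stood above the share of all genes for BRG1, and below it for ARID1A and TRβ. Their windows are shorter, with a median of 4487 bp against 28115 bp.

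**Figure D1:**
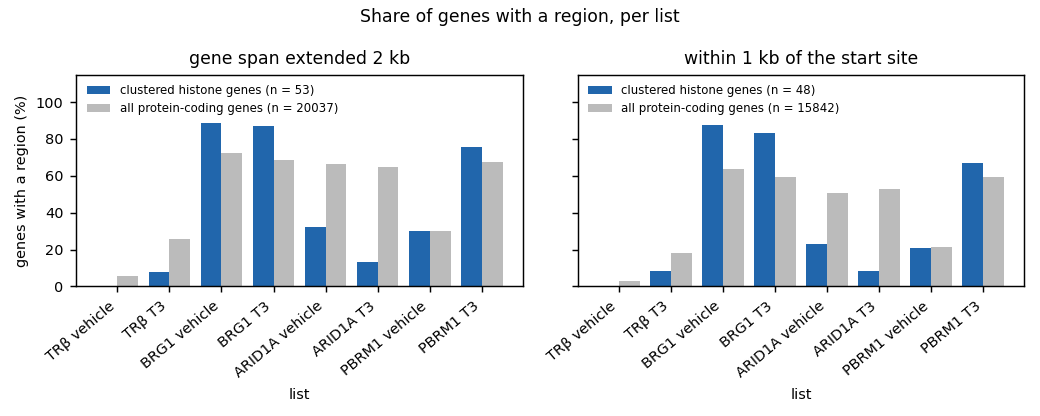
Share of genes with at least 1 region in each of the 8 lists (percent, vertical axis), for the clustered histone genes (blue) and all protein-coding genes (grey). Left: gene span extended 2 kb; right: within 1 kb of the start. For ARID1A the blue bars stand below the grey ones, at 32.1% and 13.2% on the left, and for BRG1 they stand above, at 88.7% and 86.8%.

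The same order held where gene length does not enter. Within 1 kb of the start, BRG1 regions lay at 42 of 48 members with vehicle (63.7% of 15842 genes) and at 40 with T3 (59.6% of genes). ARID1A regions lay at 11 (50.6% of genes) and 4 (52.8% of genes), so at 22.9% and 8.33% of members. PBRM1 regions lay at 10 with vehicle (20.8%, against 21.4%) and 32 with T3 (66.7%, against 59.5%). TRβ had 0 (3.05% of genes) and 4 (8.33%, against 18%). The PBRM1 shares were near those of all genes in both conditions.

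The 45 members that had BRG1 in both conditions (66.5% of all genes did) left few that differed. H2BC6, an H2B gene, had BRG1 with T3 alone (2.01% of genes), with values of 7.55 and 5.23 in the 2 libraries (percentile 58.5). These are the authors' peak values, whose sum ranks the regions of a list and is not compared between lists. H1-1, a linker histone gene, and H4C9 had BRG1 with vehicle alone (5.88% of genes). Their library values were 4.58 and 3.84 for H1-1, at percentile 12.2 of the list, and 7.15 and 3.05 for H4C9, at percentile 33.1. The single-condition regions thus ranked in the lower part or near the middle of their lists.

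BRG1 values at the histone genes reached the top of the T3 list. The highest was 1 region of 4487 bp, chr6:27807042-27811528, which spans H2BC13, H2AC13 and H3C10, a trio of H2B, H2A and H3 genes at the start of the third block. It had values of 32.9 and 16.7 in the 2 libraries and stood at percentile 99.4. The strongest vehicle region there lay over H2BC13 and H2AC13 and ended before H3C10. It was 2565 bp wide, with values of 20.8 and 8.27, at percentile 92.8 of its own list. H4C2 followed with T3, with 19.1 and 14.5 (percentile 96.8), then the region shared by H2BC4 and H2AC6 with 18.2 and 13 (percentile 95.8) and H4C3 with 19.1 and 11.1 (percentile 95.2).

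H3C1, an H3 gene near the left end of the cluster, had 7.14 and 16.6 in the BRG1 T3 libraries (percentile 89.7), and the linker gene H1-2 had 8.08 and 14.9 (percentile 88.7). In both, the library order was opposite to that of H4C2 and H4C3. H1-5, second among the H1 genes, had 6.67 and 6.92 (percentile 62.7). That region is shared with H2AC16 and does not reach the H1-5 span, with its summit 1419 bp after the H1-5 start. With vehicle the highest BRG1 value was at H4C12, with 25.7 and 7.54 (percentile 95.3), a region in which 1 library gave most of the sum. Over all member regions the median percentile was 41.5 among 71 BRG1 vehicle regions and 58.4 among 52 BRG1 T3 regions.

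**Figure D2:**
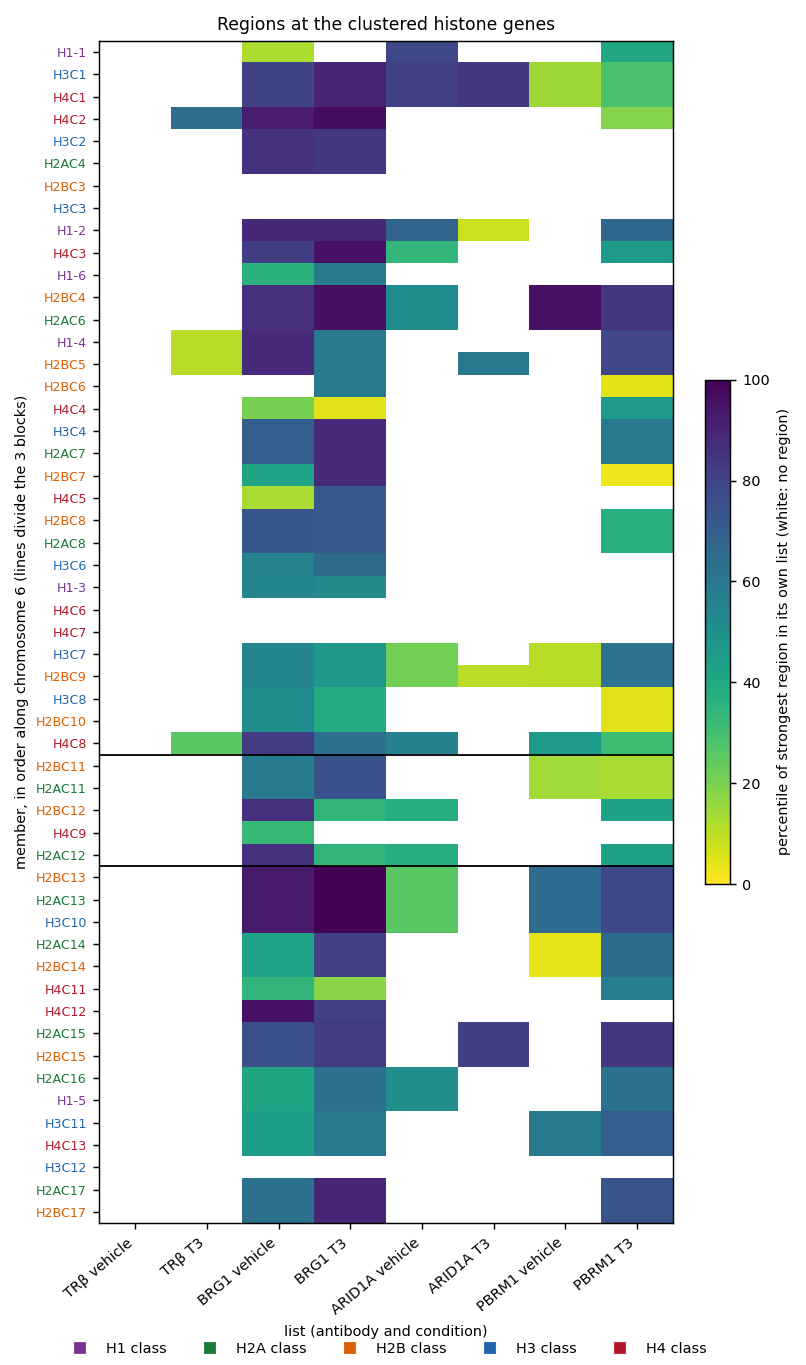
Rank of the strongest region at each clustered histone gene (rows, in order along chromosome 6, with lines between the 3 blocks and symbols coloured by class) in each list (columns). Colour gives the percentile within its own list, and white means no region. The BRG1 columns are filled for 47 and 46 genes and the ARID1A T3 column for 7.

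PBRM1, the PBAF subunit, was listed at 24 members with T3 alone (45.3%, against 38.3% of all genes), at 16 in both conditions (29.1% of genes) and at none with vehicle alone (1.06% of genes). Among those listed with T3 alone, the highest value was at the divergent pair H2AC15 and H2BC15, with 10.6 and 8.24 in the 2 libraries (percentile 83.7). H1-4 and H2BC5 shared a region with 12.7 and 4.46, H2AC17 and H2BC17 one with 7.53 and 8.51, and H1-2 had 6.45 and 8.0. Of these 4 regions, the libraries lay farthest apart at that of H1-4 and H2BC5. In the vehicle list the strongest member region covered H2BC4 and H2AC6, with 13.3 and 17.8 (percentile 95.6).

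The vehicle list of PBRM1 was the shorter one. When the longer list was held to the same number of regions by signal value, PBRM1 with T3 was left at 9 members (17%, against 35.0% of genes), fewer than the 16 with vehicle. Of the members, 4 were then listed with T3 alone (7.55%, against 15.5%) and 11 with vehicle alone (20.8%, against 10.7%), so the order of the conditions turned. At an IDR (irreproducible discovery rate, the authors' measure of agreement between the 2 libraries) of at most 0.01 instead of 0.05, 26 members had PBRM1 with T3 (49.1%, against 58.6% of genes). With gene spans alone, 28 members had it with T3 (52.8%, against 64.8%) and 8 with vehicle (15.1%, against 27.7%). In both settings the T3 share of members lay below that of all genes, unlike in the main count.

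ARID1A, the BAF subunit, was listed at 4 members in both conditions (56.9% of all genes): H3C1, H4C1, H1-2 and H2BC9. With vehicle alone it was listed at 13 members (24.5%, against 9.71%) and with T3 alone at 3, namely H2BC5, H2AC15 and H2BC15 (7.73% of genes). The strongest T3 region was the one shared by H3C1 and H4C1, with 11.3 and 5.63 in the 2 libraries, and in the vehicle list the same genes had 6.14 and 7.05. The region of H2AC15 and H2BC15 with T3 had 11.3 and 4.79 and lay over the gap between their starts. That of H2BC5 lay 13772 bp from its start, outside the region it shared with H1-4 for the other proteins.

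Of the members with ARID1A in vehicle alone, H1-1 ranked first, with 6.02 and 6.86 in the 2 libraries (percentile 78.3), and no BRG1 or ARID1A region was listed there with T3. H4C8 had 3.03 and 7.06, H2BC4 and H2AC6 shared a region with 4.43 and 5.41, and H2AC16 and H1-5 one with 4.22 and 5.54. At the regions themselves, 2 of 13 ARID1A vehicle regions at members overlapped an ARID1A T3 region (15.4%), against 48.4% of the whole list. All 13 overlapped a BRG1 vehicle region, against 58.0% of the whole list.

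Read by combination, BRG1 and PBRM1 without ARID1A was the commonest state with T3 in the whole lists. It held for 32 members (60.4%), against 6.42% of all genes, and for 6 with vehicle (11.3%, against 2.3%). All 3 subunits were listed at 7 members with T3 (13.2%, against 53.8%) and at 10 with vehicle (18.9%, against 27.1%). BRG1 alone was listed at 24 members with vehicle (45.3%, against 9.47%) and at 7 with T3 (13.2%, against 3.56%).

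With vehicle and T3 lists of equal length the count of 32 fell to 6 (1.85% of all genes), as many as with vehicle, and BRG1 alone became the commonest state with T3, at 33 members (62.3%, against 8.13%). The count fell to 21 (39.6%, against 9.04% of genes) at an IDR of at most 0.01, and to 21 (39.6%, against 6.72%) with gene spans alone. With the 3 T3 subunit lists cut to the length of the shortest it was 31 (5.9% of genes). Where a BRG1 T3 region itself had to overlap a PBRM1 region and no ARID1A region, it was 34 (64.2%, against 19.1%).

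By class, BRG1 and PBRM1 without ARID1A with T3 covered 9 of 11 H2A genes, 10 of 14 H2B, 5 of 10 H3, 6 of 12 H4 and 2 of 6 H1. By block it was 16 of 32, 4 of 5 and 12 of 16 genes. Over all protein-coding genes this state held for 6.42%. BRG1 with T3 was listed at all 11 H2A genes, 13 of 14 H2B, 8 of 10 H3, 9 of 12 H4 and 5 of 6 H1. PBRM1 with T3 followed a like order, with 10 of 11 H2A, 13 of 14 H2B, 6 of 10 H3, 7 of 12 H4 and 4 of 6 H1. Over all genes the shares with T3 were 68.5% for BRG1 and 67.5% for PBRM1. The PBRM1 shares of H3, H4 and H1 (60.0%, 58.3% and 66.7%) lay below that of all genes. With vehicle, PBRM1 was at no H1 gene and at 3 to 5 genes of each other class (30.2% of all genes). ARID1A with T3 was at 3 H2B genes and at 1 gene of each other class (64.6% of all genes). H2A and H2B genes are mostly paired neighbours that share regions, so the higher counts of these classes are not independent, and the classes were not tested against each other.

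**Figure D3:**
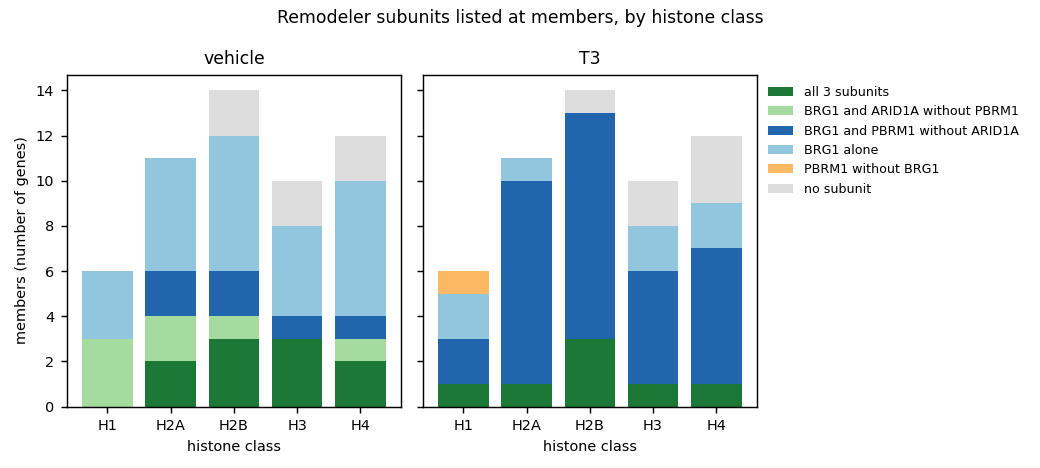
Number of clustered histone genes (vertical axis) in each class by the remodeler subunits listed at them, with vehicle (left) and T3 (right). BRG1 and PBRM1 without ARID1A (dark blue) holds 6 genes in all on the left and 32 on the right.

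At the level of regions, 28 of 52 BRG1 T3 regions at members overlapped a PBRM1 T3 region (53.8%, against 39.2% of all BRG1 T3 regions) and 6 an ARID1A T3 region (11.5%, against 43.5%). Of 38 PBRM1 T3 regions at members, 31 overlapped a BRG1 region (81.6%, against 61.8%) and 3 an ARID1A region (7.89%, against 53.3%). With vehicle, 11 of 71 BRG1 regions overlapped ARID1A (15.5%, against 38.1%) and 11 PBRM1 (15.5%, against 12.9%). BRG1 vehicle regions at members recurred in the T3 list in 59 of 71 cases (83.1%, against 70.7%). Most PBRM1 T3 regions at the histone genes thus overlapped a BRG1 region itself.

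TRβ, the receptor itself, had 3 regions in the cluster, all in the T3 list and all in the first block (T3 alone at 4 members, against 22.1% of genes). Both conditions held 0 members (3.74% of genes) and vehicle alone 0 (2.14%). The region at H4C2, chr6:26026693-26027196, had 4.55 and 6.55 in the 2 libraries and ranked at percentile 64.1. Its summit lay 287 bp after the start, and the region does not reach the window with the AGGTCA match shown above. The region at chr6:26156976-26157558, shared by H1-4 and H2BC5, had 4.61 and 3.94 (percentile 10.9). That at H4C8, chr6:26285393-26285796, had 3.91 and 5.11 (percentile 25.6), with its summit 62 bp after the start.

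All 3 TRβ regions overlapped a BRG1 T3 region (68.2% of the whole TRβ T3 list did), 2 a PBRM1 T3 region (62.4%) and none an ARID1A T3 region (66.3%). With 3 regions these counts do not set the cluster apart. At an IDR of at most 0.01, 1 member kept a TRβ region (15.6% of genes), and with lists of equal length none did (7.67%).

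The position of the regions relative to the start also differed from that of other genes. BRG1 regions with vehicle covered the start base of 25 of 48 members (52.1%, against 58.7% of genes) and with T3 that of 23 (47.9%, against 52.8%). At 100 bp before the start the count was 15 in each condition (31.2%, against 57.4% with vehicle and 52.0% with T3), and at 100 bp after it 37 with vehicle (77.1%, against 58.7%) and 33 with T3 (68.8%, against 53.2%). Coverage peaked 200 bp after the start with vehicle, at 38 members, and 300 bp after it with T3, at 35. Over all genes the profile was smooth and peaked within 100 bp of the start. Coverage of the histone genes thus dipped just upstream of the start and was highest over the gene body. In the 8 divergent H2A and H2B pairs, starts lie 194 to 248 bp apart, so bases farther upstream fall in the partner gene. The same regions then enter the profile from both sides, and the part of this in its shape was not tested.

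PBRM1 with T3 had the same shape. It covered the start base of 14 members (29.2%, against 52.7% of genes), 8 at 100 bp before the start (16.7%, against 50.3%) and 24 from 100 to 300 bp after it (50%, against 53.4% at 100 bp). With vehicle it covered 5 start bases (10.4%, against 18.3%). ARID1A covered 5 with vehicle (10.4%, against 40%) and 3 with T3 (6.25%, against 45.8%). Among the 48 members with spans up to 1 kb, BRG1 covered the centre of the gene in 38 with vehicle and 34 with T3. PBRM1 with T3 covered it in 25 (52.1%), and ARID1A in 9 and 4. Centres were not counted over all genes. At 200 bp after the start, BRG1 covered 58.0% of all genes with vehicle and 52.1% with T3. There PBRM1 with T3 covered 53.1%, near its share of member centres, and ARID1A 37.2% with vehicle and 43.4% with T3.

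**Figure D4:**
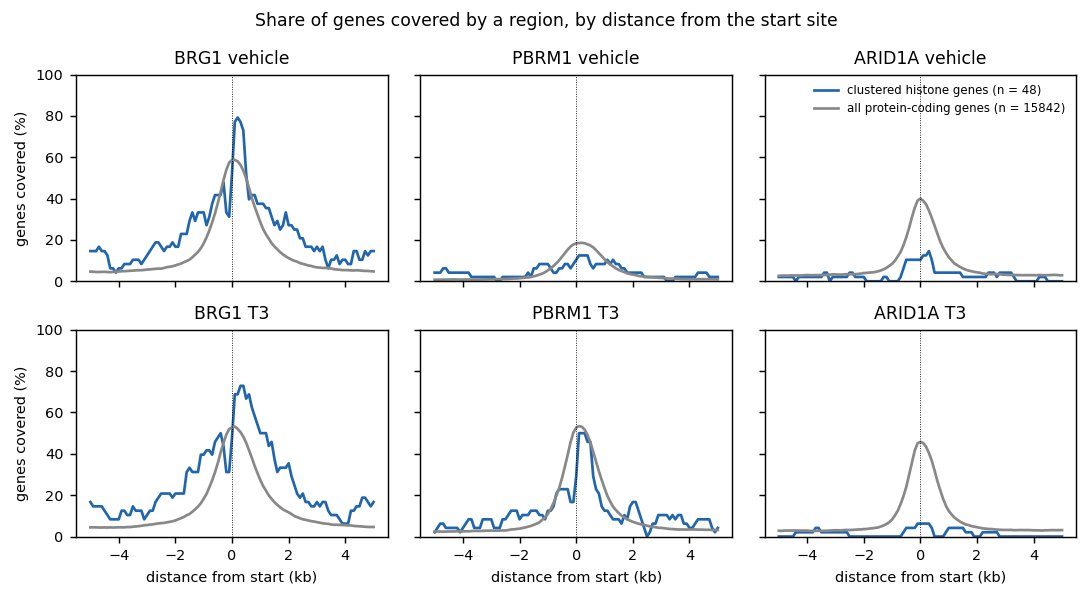
Share of genes covered by a region (percent, vertical axis) against distance from the start site (kb, positive inside the gene), for 48 clustered histone genes (blue) and all 15842 genes with a start (grey), in 6 lists. The BRG1 and PBRM1 T3 curves of the histone genes dip just before the start, to 31.2% and 16.7% at 100 bp, and rise to 72.9% and 50% after it.

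Among the 48 members with a given start, 8 divergent H2A and H2B pairs had starts 194 to 248 bp apart, with their promoters in the gap between. H2AC12, the neighbour of H2BC12, has no given start, so H2AC12 and H2BC12 were not counted as a pair. BRG1 regions overlapped the gap by at least 1 bp in 6 pairs with vehicle and 6 with T3, PBRM1 in 1 with vehicle and 3 with T3, ARID1A in 1 with each and TRβ in none. Of these 8, the 3 pairs with PBRM1 over the gap with T3 were H2AC11 and H2BC11, H2AC13 and H2BC13, and H2AC15 and H2BC15. H2AC8 and H2BC8 had no region over the gap in any list, although both genes had BRG1 regions in both conditions. The pair thus had its regions to the sides of the promoter.

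No region of any list was found at 5 members (9.43%, against 17.4% of all genes): H2BC3, H3C3, H4C6, H4C7 and H3C12. They included no H1 or H2A gene. H2BC3 and H3C3 are neighbours, as are H4C6 and H4C7. Copies of a core histone gene can be much alike in their coding sequence, and member sequences were not compared here. How the authors treated reads that match several copies is not given in the sources used here, and its part in any value at these genes was not tested.

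The 2 libraries of a group differed more at the histone genes than over whole lists in some groups. In the deposited order, the first library was higher at 34 of 38 PBRM1 T3 regions, with a median ratio of 1.61 against 1.18 over the list, and at 12 regions the libraries were over 2-fold apart. For BRG1 with vehicle the first was higher at 54 of 71 regions (median ratio 1.46, against 1.29), and for ARID1A with T3 at 6 of 6 (1.81, against 1.15). In the other lists with member regions the median ratio was within 0.76 to 1.23. Which numbered replicate comes first in the lists is not stated.

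**Figure D5:**
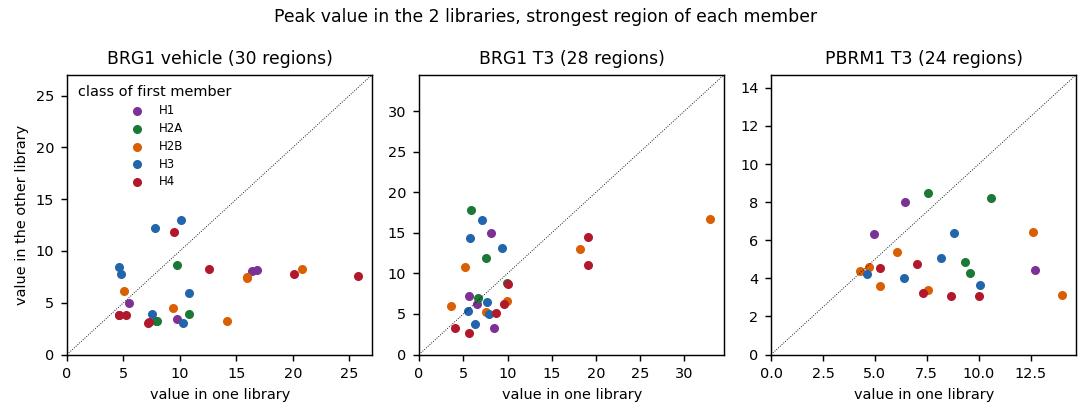
The authors' peak value in each of the 2 libraries for the strongest region of each clustered histone gene, drawn once where genes share it, coloured by the class of its first gene; the dotted line marks equal values. Most PBRM1 T3 points lie below the line, with the first library higher, while BRG1 T3 points lie on both sides of it.

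Other genes of the interval and other histone genes were set beside the cluster. Of 19 other protein-coding genes of the same interval, 11 had BRG1 with T3 (57.9%, against 68.5% of all genes) and 8 PBRM1 (42.1%, against 67.5%). With T3, 9 of the 19 had ARID1A (64.6% of all genes), and 1 had BRG1 and PBRM1 without ARID1A (5.26%, against 6.42%). Their ARID1A share with T3 (47.4%) lay above that of the histone genes (13.2%), whereas with vehicle the shares were alike (31.6% and 32.1%). TRIM38, an E3 ubiquitin ligase gene, the zinc finger gene ZNF184 and HMGN4, a nucleosome-binding protein gene, had TRβ with T3. Their summed values were 11.5, 10.8 and 10.4.

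Of 15 replication-type histone genes on other chromosomes or intervals, 14 had BRG1 with T3 (93.3%, against 68.5% of genes), 13 PBRM1 (86.7%, against 67.5%) and 8 ARID1A (53.3%, against 64.6%). BRG1 and PBRM1 without ARID1A was found at 5 of them (33.3%, against 6.42%). These are the neighbours H2BC21, H2AC20 and H2AC21, and the neighbours H2AC25 and H2BC26. TRβ with T3 was at 7 (46.7%, against 25.9%). The TRβ region shared by H2AC19, H3C15 and H4C15 had a summed value of 13.2. The neighbours H3C14 and H2AC18 both had 12.8, and H2AC25 and H2BC26 both had 9.45, so these genes are not independent. H3-4, a histone gene known from testis, had none of the 3 subunits with T3.

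The 11 replacement variant genes, which encode histones made outside replication, had ARID1A with T3 in all cases (64.6% of genes) and all 3 subunits in 10 (53.8% of genes). None had BRG1 and PBRM1 without ARID1A. H2AZ1 and H2AZ2, which encode forms of H2A.Z, had TRβ with T3, with summed values of 9.02 and 8.86. With T3, the clustered genes thus had the smallest share with ARID1A of the histone gene groups listed here. It was 13.2%, against 53.3% of those elsewhere and all 11 replacement genes. Within 1 kb of the start it was 8.33%, against 33.3% of those elsewhere and all 10 replacement genes with a given start. There the clustered genes and those elsewhere both lay below the 52.8% of all genes. The histone gene groups differ in gene length and were not tested against each other.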

How the data were processed

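CUT&RUN lists for 4 antibodies in 2 conditions (8 lists from 2 libraries each) were used. Per the submitters' processing notes, CASAVA 1.7, Trim Galore, Bowtie2 and MACS2 were run and the build was hg38. Parameters, read depth and the use of IgG were not stated. The layout is that written by IDR, and the deposited −log10 of the irreproducible discovery rate shows rates up to 0.05. The deposited signal value of a region equals the sum of its 2 libraries' values, with no stated normalization, and was used only within a list. The deposited summit position is an offset in bp; 16 columns of per-library summits were not used.

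Gene spans, starts and promoters came from RefSeq tables of GRCh38.p14. A member had a region if at least 1 bp overlapped its span extended 2 kb; starts used 1 kb. Regions outside the autosomes, X and Y were left out before counting and ranking. A percentile is the rank of a region by summed value, counted from the lowest, as a percentage of the list's length. Tied values share their mean rank. Motifs were searched as exact letters on both strands. No test was made. Overlap counting was tested on simulated data (4000 windows, 0 wrong).

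Named genes were chosen by rule: members with TRβ; per class the 2 with the highest BRG1 T3 value; members with no region; per subunit up to 5 listed in 1 condition alone; and up to 3 genes of each comparison list by TRβ T3 value. H4C12 and the library ranges were chosen after their values were seen. Members and lists were chosen with earlier results of these data known. Some genes this rule names are not reported here. Protein sequences were not used here. Alternatives were other windows, stricter IDR, lists of equal length, midpoints, single-library intervals, merged windows and regions overlapping one another; those chosen after seeing the data were subunit lists of equal length and members up to 1 kb. Python 3.11.15, numpy 2.4.6, pandas 2.3.3 and matplotlib 3.10.9 were used.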

Additional observations from a re-analysis of the deposited data

How the results depend on the processing

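Of 22 member counts, all stayed within 1.5 times their value with region midpoints, with the interval of the first or of the second library, and with members up to 1 kb, and 21 did with subunit lists of equal length. With gene spans alone, ARID1A was at 9 members with vehicle (62.7% of genes), 4 with T3 (61.5%) and 8 with vehicle alone (9.96%). PBRM1 with vehicle was at 8 (15.1% of members, against 27.7% of genes), unlike the equal shares of the main count. All 3 subunits were at 3 members with vehicle (5.66%, against 24.2% of genes). They were at 3 with T3, again below the share of all genes. BRG1 and PBRM1 without ARID1A was at 21 with T3 (6.72% of genes). Within 1 kb of the start, ARID1A was at 11 (50.6%) and 4 (52.8%), PBRM1 with vehicle at 10 (21.4%), and all 3 subunits at 4 (16.8%) and 3 (43.8%). At an IDR of at most 0.01, TRβ with T3 was at 1 (15.6%), and with T3 alone at 1 (14.8%). ARID1A with vehicle was at 9 (49.5%), and with vehicle alone at 7 (8.6%). PBRM1 was at 5 (9.82%) and 26 (58.6%), and BRG1 and PBRM1 without ARID1A at 3 (1.26%) and 21 (9.04%). All 3 subunits were at 2 (8.44%) and 3 (41.8%). With vehicle and T3 lists of equal length, TRβ with T3 was at 0 (7.67%), and with T3 alone at 0 (5.63%). PBRM1 with T3 was at 9 (35.0%), with T3 alone at 4 (15.5%) and with vehicle alone at 11 (10.7%). BRG1 and PBRM1 without ARID1A with T3 was at 6 (1.85%). BRG1 alone with T3 was at 33 (8.13%), and all 3 subunits with T3 at 3 (31.6%). Fewer regions enter these last settings by construction. Counted over 28 merged windows in place of 53 genes, BRG1 was in 25 with vehicle and 26 with T3, ARID1A with vehicle in 9 (vehicle alone 6), PBRM1 in 7 and 21 (T3 alone 14), BRG1 and PBRM1 without ARID1A in 2 and 16, and all 3 subunits with vehicle in 5. Where the regions themselves had to overlap, BRG1 and PBRM1 without ARID1A was at 12 members with vehicle (22.6% of members, against 9.53% of genes). With T3 it was at 34 (64.2%, against 19.1%). All 3 subunits with vehicle were at 5 (9.43%, against 22.4%). A BRG1 region that overlapped neither was at 41 members with vehicle (77.4%, against 49.0%) and 29 with T3 (54.7%, against 35.4%). A gene can have several regions, so these states do not exclude one another.

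No paired analysis was possible because each group has 1 list and no result comes from a test. Leaving out a library was not run because the lists hold regions found in both libraries. Read depth is unknown, so an unlisted gene is not shown to lack signal, and lists of different length cannot be compared in how much protein was bound. Members share regions and are not independent.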

Other observations

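Genes that act on histone mRNA and histone proteins, outside the cluster, were more often listed with TRβ and ARID1A with T3 than the clustered genes were. Of 17 genes of histone mRNA synthesis and processing, 9 had TRβ with T3 (52.9%) and 12 all 3 remodeler subunits (70.6%, against 53.8% of genes). The highest summed TRβ values were at E2F1, a transcription factor gene of the G1/S transition (16.3), CDK2, the cyclin E partner (14.3), and SLBP, which binds the stem-loop of histone mRNA (14.3). NPAT, the coactivator of the clustered histone genes, had 1 region in 7 of the lists and none in the TRβ vehicle list. CSTF2, a cleavage factor gene, had no region in any list. Over all protein-coding genes the TRβ share with T3 was 25.9%.

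Of 18 histone chaperone genes, 14 had TRβ with T3 (77.8%, against 25.9% of genes) and 14 had all 3 subunits (77.8%, against 53.8%). CABIN1, of the HIRA complex, had the highest summed value (18.2), followed by DAXX (16.3) and ASF1B (15.6). ASF1A, ATRX, HJURP and RBBP4 had no TRβ region. These genes are longer than the clustered histone genes, and the shares were not tested against each other.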
